A study of Mus musculus with 16 samples.

Results

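The comparison described here sets 3 libraries of ex vivo cultured alveolar macrophages (mexAM) against 3 libraries of bone marrow derived macrophages (BMDM), 6 of the 16 libraries of the series, chosen by their titles. Both cultures came from wild type C57BL/6 mice, and mice 1, 2 and 4 gave 1 library of each, so the replicates are separate animals. The labels name no treatment for either culture. The sources used here give neither the culture medium, the days in culture and the passage of these 3 mexAM libraries nor the sex and age of the mice. Cell origin and culture conditions differ together between mexAM and BMDM and cannot be told apart. The other 10 libraries held bronchoalveolar lavage cells (BALF) and peritoneal lavage cells (PLF) of mice 1, 2 and 4, and alveolar macrophage cultures from lavage pool 1 at passages 8 and 13 and from lavage pool 2 at passages 5 and 10.

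Alveolar macrophages are the resident phagocytes of the airspace. They are seeded before birth, persist largely by local proliferation, depend on granulocyte-macrophage colony-stimulating factor (GM-CSF) and on the lipid-sensing nuclear receptor PPARγ, and take up and break down the lipid-rich surfactant that coats the airspace. Bone marrow derived macrophages are grown from haematopoietic progenitors in culture, as a rule with macrophage colony-stimulating factor (M-CSF) acting through the receptor encoded by Csf1r, and have long served as the standard macrophages of the laboratory.

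Counting was by QuantSeq, which sequences the 3' end of polyadenylated transcripts. The mexAM libraries held 1721856, 2055082 and 2427996 counts in genes (mice 1, 2 and 4), and the BMDM libraries held 2068473, 1458341 and 1631685. Levels are given as CPM (counts-per-million of library totals scaled by edgeR's TMM factors), for mice 1, 2 and 4 in that order. Changes are on the log2 scale, mexAM over BMDM, with the standard error (SE), and a gene was called higher or lower where its Benjamini-Hochberg adjusted p from edgeR's quasi-likelihood test was below 0.05. Gene coordinates are those of GENCODE M21 on GRCm38. Libraries of 1 culture had Spearman correlations of 0.948 to 0.968 (mexAM) and 0.958 to 0.978 (BMDM), against 0.673 to 0.716 between the cultures. Reads outside genes made up 13.3% to 15.5% of mexAM libraries and 20.8% to 28.3% of BMDM libraries, and the ribosomal RNA locus Gm42418 took 5.11%, 5.45% and 5.15% of mexAM counts and 5.95%, 11.96% and 12.48% of BMDM counts. In bulk RNA of this kind, fewer cells of a type and less RNA per cell cannot be told apart.

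Of 10011 genes tested, 4462 (44.6%) were called between mexAM and BMDM. In mexAM, 2157 (21.5%) were higher and 2305 (23%) were lower, with a median change over all tested genes of -0.001 on the log2 scale. Called changes of at least 2-fold numbered 1465 higher and 1744 lower, and called changes of at least 8-fold numbered 370 higher (3.70%) and 671 lower (6.70%). The 3 mexAM values lay wholly above or below the 3 BMDM values in 5527 genes (55.2%), of which 4282 were called. Most called genes, 4232, were protein coding. Gene lists are described below by how many of their tested members were higher or lower in mexAM, to be read against these background shares. A gene nearly absent from 1 culture entered the test through its level in the other culture, BALF or PLF, so the members tested are not the whole list. Some tested genes, such as Gata6, had 0 counts in both cultures and could not be called, yet they count in these shares. A fit of the 6 libraries alone tested 9453 genes and called 4263. Of the called genes named below, only Pparg, Spp1 and Tgfbr2 had mexAM values that overlapped the BMDM values.

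**Figure D1:**
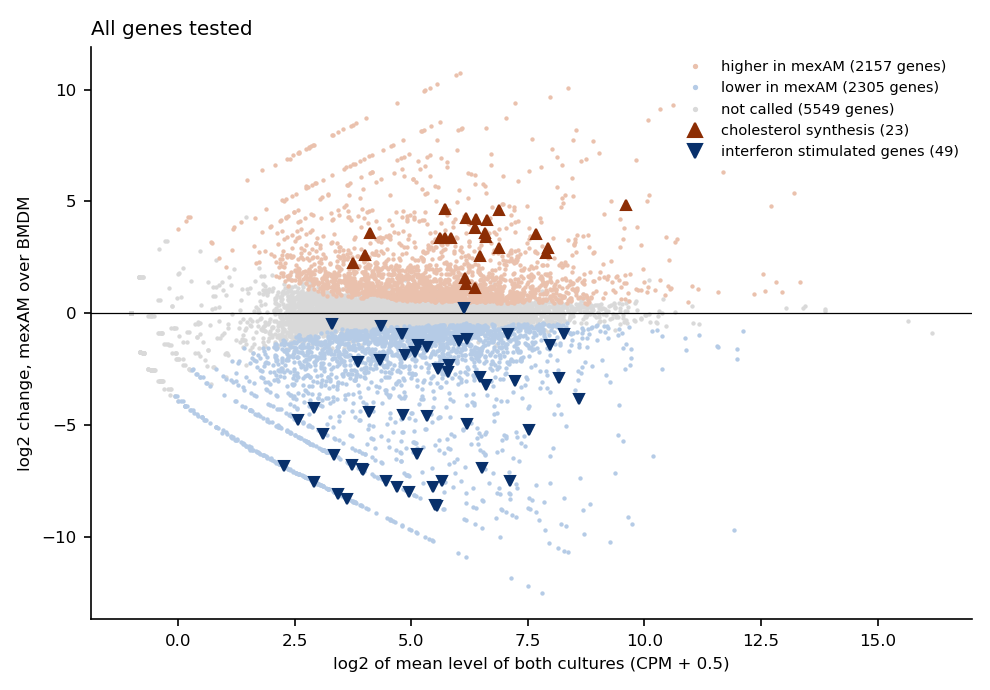
Each point is 1 of the 10011 genes tested, with its mean level in mexAM and BMDM (log2 CPM, horizontal axis) and its log2 change, mexAM over BMDM (vertical axis). Genes called higher in mexAM (2157) lie above 0 and genes called lower (2305) lie below. Triangles mark 23 cholesterol synthesis genes, all above 0, and 49 interferon stimulated genes, the called ones all below 0.

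**Figure D2:**
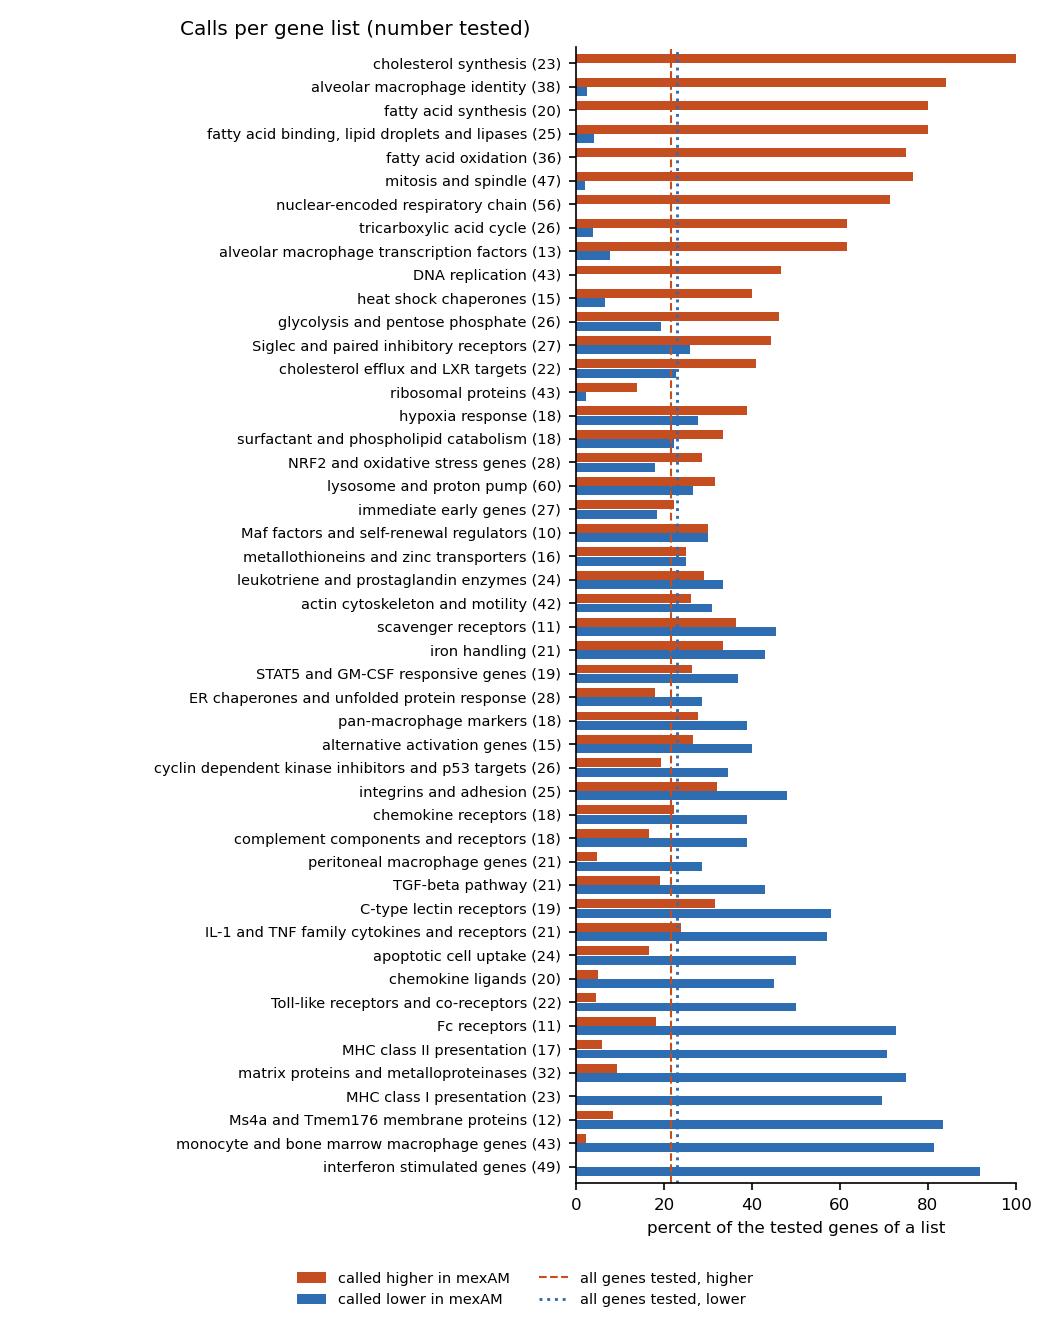
Share of each gene list's tested members called higher in mexAM (upper bar of each pair, percent) and called lower (lower bar), with the number tested in parentheses. The vertical lines mark the shares over all tested genes, 21.5% higher (dashed) and 23% lower (dotted). Lipid and respiration lists stand at the top with mostly higher members, and interferon, bone marrow macrophage and matrix lists at the bottom with mostly lower members.

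The labels were set beside listed markers of each origin. These lists were chosen with earlier results of these data known, so they are not an independent check of the labels. Of 38 tested genes listed for alveolar macrophage identity, 32 were higher in mexAM and 1 was lower, with a median log2 change of 3.96. Of 43 tested genes listed for monocytes and bone marrow macrophages, 1 was higher and 35 were lower, with a median of -7.08, or -6.75 with genes at 0 counts in mexAM set to their bound. The summed level of the alveolar list ranged from 32645 to 35833 CPM in mexAM and from 5406 to 10732 CPM in BMDM (exact two-sided permutation test, p = 0.1, the smallest that 3 against 3 libraries allow). The summed level of the bone marrow list ranged from 19489 to 29594 CPM in mexAM and from 44320 to 52068 CPM in BMDM (exact p = 0.1).

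Several of the alveolar genes were nearly silent in BMDM. Cidec (ENSMUSG00000030278, chr6:113424634-113435760, minus strand), which fuses lipid droplets, had 42.8, 36.5 and 73.5 CPM in mexAM and 0 counts in BMDM, at least 98.4-fold higher in mexAM. Krt19, a keratin of simple epithelia, had 292, 85.3 and 403 CPM in mexAM and 0.438, 0.647 and 0.581 CPM in BMDM, a level 500.5-fold higher (95% interval 171 to 2429) by its counts. Such intervals, here and below, pool the counts of a culture and cover counting error only, not the spread between mice. Perp, a tetraspan membrane protein of desmosomes, had 224, 159.8 and 193 CPM in mexAM and 0.876, 0 and 0.581 CPM in BMDM, 353-fold higher (95% interval 120.4 to 1712). These 3 genes were below 1 CPM in every BMDM library, and the lowest mexAM library still held 36.5 CPM. Olr1, the oxidised low-density lipoprotein receptor, had 461, 873 and 464 CPM in mexAM and 7.45, 5.18 and 4.65 CPM in BMDM (log2 change 6.65 ± 0.34, edgeR adjusted p = 9.61e-11). Atp6v0d2, a subunit of the lysosomal proton pump, had 2186, 2282 and 1761 CPM in mexAM and 24.5, 33.7 and 132 CPM in BMDM (5.04 ± 0.57, edgeR adjusted p = 9.2e-06). Ctsk, a cathepsin that cleaves collagen, had 166, 182 and 189 CPM in mexAM and 7.88, 22.01 and 12.8 CPM in BMDM (3.69 ± 0.29, edgeR adjusted p = 1.62e-08). For all 3 of these genes the lowest mexAM library was above the highest BMDM library, while the BMDM libraries of Atp6v0d2 spread more widely, with mouse 4 the highest. Without that library the log2 change of Atp6v0d2 was 6.17.

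Not every gene that is used to recognise alveolar macrophages separated the cultures. Itgax, which encodes the integrin CD11c, had 64.2, 65.6 and 37.9 CPM in mexAM and 8.76, 12.3 and 51.2 CPM in BMDM. Its mexAM and BMDM values overlapped through BMDM of mouse 4, and the change of 1.23 ± 0.53 did not pass (edgeR adjusted p = 0.0763). Without that library the log2 change was 2.42 (edgeR adjusted p = 0.000113). Mrc1, the mannose receptor, was present in both cultures, at 1349, 1688 and 1465 CPM in mexAM and 747, 819 and 451 CPM in BMDM, and was higher in mexAM by 1.16 ± 0.23 (edgeR adjusted p = 0.000474). Spp1, the secreted glycoprotein osteopontin, had 1540.3, 1456 and 1214 CPM in mexAM and 473, 445 and 1267 CPM in BMDM. BMDM of mouse 4 lay within the mexAM values, and the log2 change was 0.95 ± 0.33 (edgeR adjusted p = 0.0288). This call was lost in a fit of the 6 libraries alone, and when mouse 1 or 2 of either culture was left out. The adjusted p was 0.141 without BMDM of mouse 1, 0.124 without BMDM of mouse 2, 0.0944 without mexAM of mouse 1 and 0.063 without mexAM of mouse 2. Without BMDM of mouse 4 the change was 1.61.

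**Figure D3:**
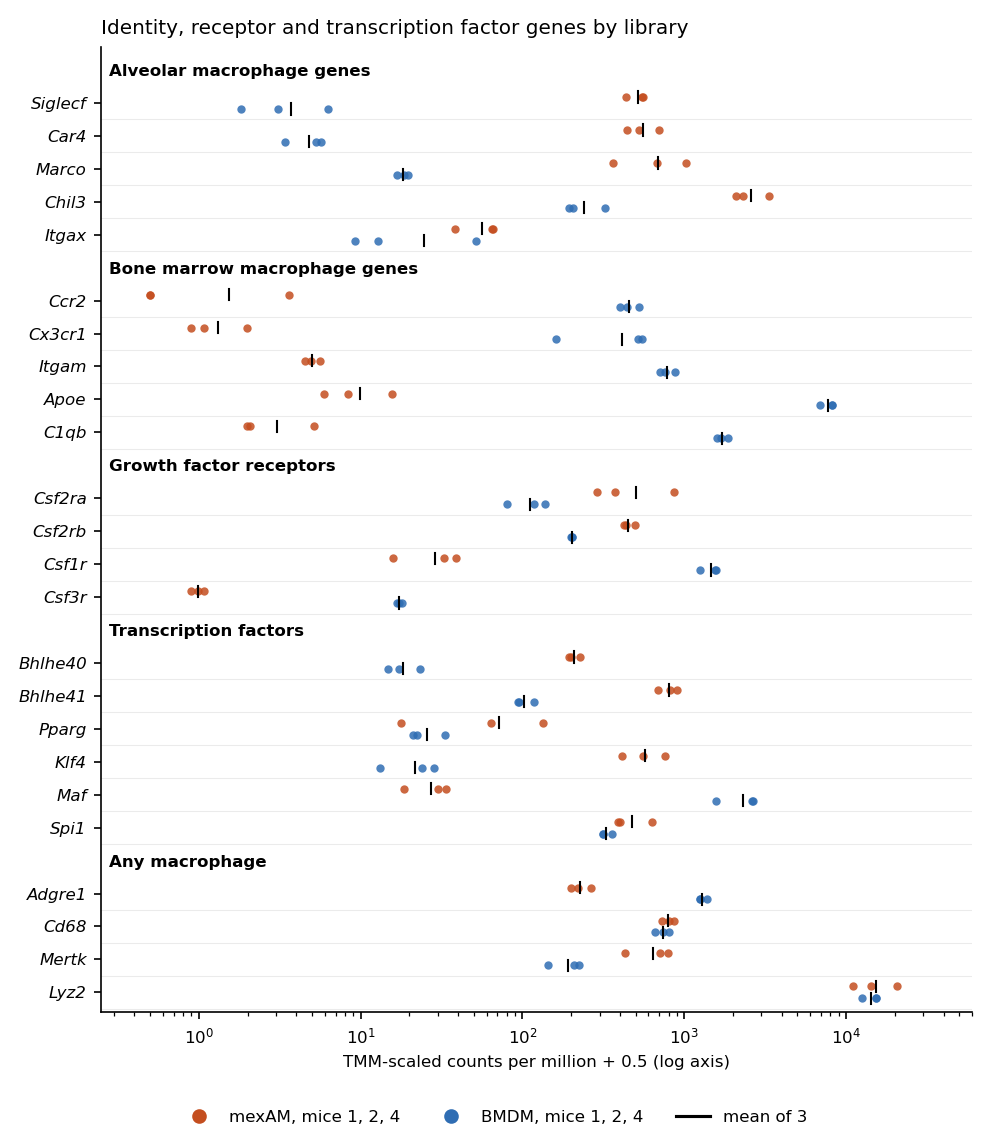
Level of each gene in the 3 mexAM libraries (upper of each pair) and the 3 BMDM libraries (lower), as CPM plus 0.5 on a log axis, with 1 dot per library and a black tick at the mean of 3. Alveolar markers such as Siglecf lie to the right in mexAM, bone marrow macrophage genes such as Ccr2, Itgam and Apoe lie to the right in BMDM, and Cd68 and Lyz2 overlap.

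Genes that mark macrophages of any origin were divided. Of 18 tested pan-macrophage markers, 5 were higher in mexAM and 7 were lower. Cd68, a lysosomal glycoprotein, had 864, 799 and 728 CPM in mexAM and 736, 663 and 807 CPM in BMDM, which overlapped (0.12 ± 0.19, edgeR adjusted p = 0.646). Lyz2, which encodes lysozyme, had 14335, 20744 and 11036 CPM in mexAM and 15259, 15317 and 12489 CPM in BMDM (0.10 ± 0.26, edgeR adjusted p = 0.786). Lyz2 shares sequence with Lyz1, so its counts may include reads of that copy. Adgre1, which encodes F4/80, was lower in mexAM, with 219.7, 199 and 264 CPM in mexAM and 1385, 1255 and 1245 CPM in BMDM (-2.51 ± 0.20, edgeR adjusted p = 1.34e-08). Mertk, a receptor for dying cells, was higher, with 789, 711 and 428 CPM in mexAM and 222, 209 and 144 CPM in BMDM (1.74 ± 0.28, edgeR adjusted p = 8.58e-05). The values of the cultures did not overlap for Adgre1 or for Mertk. The integrin beta chain gene Itgb2 was also higher in mexAM (1.72 ± 0.20), and the antibody receptor gene Fcgr3 was lower (-0.98 ± 0.23).

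Of 10 tested Maf factors and self-renewal regulators, 3 were higher in mexAM, 3 were lower and 4 were not called, with a median log2 change of 0.29. Maf, a leucine zipper factor of macrophage differentiation, had 17.9, 33.0 and 29.7 CPM in mexAM and 2656, 2639 and 1576 CPM in BMDM (log2 change -6.40 ± 0.32, edgeR adjusted p = 6.72e-11). Of the small Maf factors, Mafg was lower in mexAM (-0.89 ± 0.21), Maff was higher (3.19 ± 0.37) and Mafk was not called (0.35 ± 0.26). Klf4, a zinc finger factor, had 756, 409 and 556 CPM in mexAM and 12.7, 23.3 and 27.9 CPM in BMDM (4.77 ± 0.40, edgeR adjusted p = 1.21e-07). Myc, the growth regulator, had 9.83, 25.2 and 22.3 CPM in mexAM and 6.57, 3.88 and 8.72 CPM in BMDM (1.57 ± 0.45, edgeR adjusted p = 0.00932).

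Of 13 tested factors listed for alveolar macrophages, 8 were higher in mexAM and 1 was lower. Bhlhe40 had 195, 200.3 and 225 CPM in mexAM and 16.6, 14.2 and 22.7 CPM in BMDM, and Bhlhe41 had 685, 899 and 819 CPM in mexAM and 118, 95.1 and 93.6 CPM in BMDM. These related repressors maintain alveolar macrophage identity and proliferation in mice, and they were higher by 3.53 ± 0.41 and 2.97 ± 0.19 (edgeR adjusted p = 4.64e-06 and 1.25e-09). Pparg, which encodes PPARγ, was uneven, with 17.4, 134 and 63.3 CPM in mexAM and 21.9, 20.7 and 32.6 CPM in BMDM. The mexAM library of mouse 1 lay below all BMDM libraries and that of mouse 2 far above them. The change of 1.52 ± 0.51 passed (edgeR adjusted p = 0.0281), but the adjusted p was 0.0692 with mouse as a block, 0.17 without mexAM of mouse 2, 0.101 without BMDM of mouse 1 and 0.0901 without BMDM of mouse 2. The Pparg call was lost under 7 of 16 alternatives, also in a fit of the 6 libraries with or without mouse as a block. Rxra, which encodes the binding partner of PPARγ, was higher by 1.45 ± 0.25. Nr1h3, the oxysterol receptor LXRα, was higher by 2.45 ± 0.40, or by 3.30 without BMDM of mouse 4. Spi1, which encodes the macrophage factor PU.1, had 632, 387 and 402 CPM in mexAM and 356, 315 and 313 CPM in BMDM, which did not overlap, and was not called (0.53 ± 0.26, edgeR adjusted p = 0.114). Runx3 was the 1 factor of the list that was lower in mexAM, with 1.16, 0 and 0 CPM in mexAM and 41.6, 23.9 and 26.7 CPM in BMDM, 101-fold lower (95% interval 27.6 to 843).

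Receptors for M-CSF and GM-CSF went in opposite directions. Of 8 tested receptor and ligand genes of this family, 2 were higher in mexAM and 5 were lower. In a fit of the 6 libraries with mouse as a block 3 of 7 tested were lower. Csf1r, the M-CSF receptor, had 38.2, 32.1 and 15.2 CPM in mexAM and 1568, 1549 and 1258 CPM in BMDM (-5.70 ± 0.33, edgeR adjusted p = 4.46e-10). The receptor for GM-CSF has an alpha chain, encoded by Csf2ra, and a signalling beta chain, encoded by Csf2rb. Csf2ra had 859, 373 and 287 CPM in mexAM and 137, 80.3 and 117 CPM in BMDM (2.18 ± 0.58, edgeR adjusted p = 0.0091), with mouse 1 the highest mexAM library. Without that library its change was 1.55 and did not pass (edgeR adjusted p = 0.0549). Csf2rb had 494, 421 and 433 CPM in mexAM and 201, 198 and 202 CPM in BMDM (1.16 ± 0.23, edgeR adjusted p = 0.000492), without overlap. Csf2rb2, a mouse paralogue of the beta chain that serves interleukin 3, had 83.8, 123 and 132 CPM in mexAM and 107, 86.1 and 126 CPM in BMDM and was not called (0.09 ± 0.22); reads shared between the paralogues would make both counts uncertain. The ligand gene Csf1 had 0, 0.493 and 0 CPM in mexAM and 12.7, 12.9 and 26.2 CPM in BMDM, 107-fold lower (95% interval 18.7 to 4270.2) in mexAM, and Csf2 had 0 counts in all 6 libraries.

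Targets of STAT5, which acts downstream of the GM-CSF receptor, went in both directions. Of 19 tested genes listed as STAT5 and GM-CSF responsive, 5 were higher in mexAM and 7 were lower. Cish, a feedback inhibitor of cytokine signalling, had 107, 72.0 and 129.8 CPM in mexAM and 4.82, 4.53 and 3.49 CPM in BMDM (4.55 ± 0.45, edgeR adjusted p = 5.22e-07). Socs2, another member of that family, had 59.5, 50.3 and 40.7 CPM in mexAM and 5.70, 4.53 and 8.72 CPM in BMDM (2.97 ± 0.28, edgeR adjusted p = 1.59e-07). Csn2 encodes the milk protein beta-casein, a classical STAT5 target of the mammary gland, and had 859, 516 and 132 CPM in mexAM and 0.876, 0 and 0.581 CPM in BMDM, 840.5-fold higher (95% interval 287 to 4078) in mexAM. Its mexAM libraries differed among themselves, with mouse 1 the highest and mouse 4 the lowest. The D-type cyclins, which carry growth signals to the cell cycle, went in opposite directions. Ccnd2 (ENSMUSG00000000184, chr6:127125162-127152193, minus strand) had 2181, 2302 and 1971 CPM in mexAM and 47.8, 49.2 and 69.2 CPM in BMDM, and Ccnd1 had 1.74, 4.44 and 1.17 CPM in mexAM and 127, 91.9 and 302 CPM in BMDM. The log2 change was 5.28 ± 0.60 for Ccnd2 and -6.14 ± 0.58 for Ccnd1 (edgeR adjusted p = 1.12e-05 and 7.71e-07).

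Pathways that shape tissue macrophages gave further differences. Of 21 tested genes of TGF-β signalling, which alveolar macrophages need in the lung, 4 were higher in mexAM and 9 were lower. Tgfbr2, a receptor chain, had 145, 494 and 369.9 CPM in mexAM and 183, 121 and 90.1 CPM in BMDM (1.35 ± 0.36, edgeR adjusted p = 0.00671), a call lost in a fit of the 6 libraries with mouse as a block (adjusted p = 0.0868). Its mexAM library of mouse 1 lay between BMDM libraries. Smad3, which carries the signal, had 0.578, 0 and 0 CPM in mexAM and 35.9, 25.9 and 15.1 CPM in BMDM, 168-fold lower (95% interval 29.8 to 6698), and the inhibitory Smad6 had 21.4, 35.02 and 8.60 CPM in mexAM and 4.38, 1.94 and 2.91 CPM in BMDM (2.71 ± 0.55, edgeR adjusted p = 0.000715). Of 21 tested peritoneal macrophage genes, 1 was higher (4.76%), 6 were lower (28.6%) and 14 were not called. The lower share is near the 23% over all tested genes, of which 21.5% were higher. In a fit of the 6 libraries alone 4 of the peritoneal genes were tested, of which 3 were lower. Cfp, which encodes the complement activator properdin, had 38.7, 22.7 and 54.4 CPM in mexAM and 349, 359 and 467 CPM in BMDM (-3.33 ± 0.32, edgeR adjusted p = 3.02e-07).

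Most genes of recruited and bone marrow macrophages were lower in mexAM, 35 of 43 tested, and the first 4 described here did not exceed 15.0 CPM in any mexAM library. Most of the list's summed level in mexAM came from the lysozyme gene Lyz2, which was not called. Apoe (ENSMUSG00000002985, chr7:19696109-19699188, minus strand), which carries cholesterol out of macrophages, had 15.0, 5.43 and 7.82 CPM in mexAM and 8152, 8172 and 6856 CPM in BMDM (-9.70 ± 0.39, edgeR adjusted p = 1.13e-11). Ccr2, the chemokine receptor that brings monocytes out of the marrow, had 0, 0 and 3.13 CPM in mexAM and 526, 440.1 and 402 CPM in BMDM (-8.44 ± 0.56), its mexAM counts all in mouse 4. Cx3cr1, the fractalkine receptor, had 0.578, 1.48 and 0.391 CPM in mexAM and 551, 518 and 161 CPM in BMDM (-8.88 ± 0.71), with BMDM of mouse 4 the lowest of its culture. Itgam, which encodes the integrin CD11b, had 4.05, 4.44 and 5.08 CPM in mexAM and 881, 704 and 756 CPM in BMDM (-7.39 ± 0.28, edgeR adjusted p = 1.01e-11). No mexAM value of these 4 genes reached the lowest BMDM value. F13a1, the coagulation factor XIII subunit made by monocytes, had 0.578, 0 and 0.391 CPM in mexAM and 702, 684 and 302 CPM in BMDM, 1809-fold lower (95% interval 500.4 to 14945). Cd14, the co-receptor for bacterial lipopolysaccharide, kept a measurable level in mexAM, with 11.6, 34.0 and 42.6 CPM in mexAM and 327, 259 and 312 CPM in BMDM (-3.32 ± 0.32, edgeR adjusted p = 3.07e-07). The 1 list member that was higher in mexAM was Gngt2, a G protein gamma subunit, with 226, 217 and 281 CPM in mexAM and 40.7, 45.3 and 66.9 CPM in BMDM (2.25 ± 0.29), named after its value was seen.

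The C1q genes and most Ms4a and Tmem176 genes were lower in mexAM. C1qa, C1qb, C1qc, Ms4a7, Ms4a6c, Ms4a6d, Tmem176a and Tmem176b are also members of the bone marrow list above, so their calls are not a separate result. C1qa, C1qb and C1qc encode the 3 chains of C1q, which binds antibody and dying cells. C1qc had 1.74, 0 and 1.17 CPM in mexAM and 1277, 1264 and 1159 CPM in BMDM (-10.23 ± 0.41, edgeR adjusted p = 1.13e-11), C1qa changed by -9.53 ± 0.40 and C1qb by -9.42 ± 0.43. C3ar1, the receptor for the complement fragment C3a, had 0.578, 0.987 and 5.87 CPM in mexAM and 1672, 1382 and 1736 CPM in BMDM (-9.13 ± 0.48, or -10.82 without mexAM of mouse 4). Of 18 tested complement genes, 3 were higher in mexAM and 7 were lower. C5ar1, the receptor for C5a, had 328, 466 and 399 CPM in mexAM and 296, 234 and 316 CPM in BMDM, without overlap, and was not called (0.49 ± 0.26, edgeR adjusted p = 0.132). Of 12 tested Ms4a and Tmem176 genes, which encode small membrane proteins, 1 was higher and 10 were lower. Ms4a7 had 28.9, 33.5 and 28.9 CPM in mexAM and 1385, 1499 and 1167 CPM in BMDM (-5.47 ± 0.28), Ms4a6c changed by -8.82 ± 0.61, and Ms4a6d remained at 91.3, 110.5 and 95.0 CPM in mexAM against 360.1, 279.6 and 258 CPM in BMDM (-1.60 ± 0.26). Tmem176a had 0, 0.987 and 0 CPM in mexAM and 586, 515 and 379 CPM in BMDM, 1586-fold lower (95% interval 438 to 13098). Tmem176b had 0 counts in mexAM and 583, 439 and 313 CPM in BMDM, at least 967-fold lower. Tmem176a and Tmem176b start 346 bases apart on opposite strands of chromosome 6, and are transcribed away from each other. Ms4a genes are close paralogues, so reads could be split among them.

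The C1qc promoter is shown because C1q genes were among the most strongly lower genes of mexAM and because PU.1, whose gene was not called, binds purine-rich letters near the starts of myeloid genes. The sequence is RefSeq's (GRCm38.p6, chr4:136892915-136893164, the 250 bases before the start, minus strand, 5′ to 3′), and the capitals mark the letters GAGGAAGT, found here as their reverse complement.
C1qc: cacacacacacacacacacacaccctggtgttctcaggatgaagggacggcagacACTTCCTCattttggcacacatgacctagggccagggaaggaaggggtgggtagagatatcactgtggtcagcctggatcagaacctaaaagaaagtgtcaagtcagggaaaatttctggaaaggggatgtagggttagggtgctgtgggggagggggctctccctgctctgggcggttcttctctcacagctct
These letters, searched on both strands of 300 bases around the start (250 before and 50 after), were in 282 of 7797 promoters of tested genes (3.62%). They were in 12 of 279 promoters of genes called at least 8-fold higher (4.30%) and in 35 of 471 called at least 8-fold lower (7.43%). Among the listed monocyte and bone marrow macrophage genes, 5 of 36 promoters held them (13.9%). Of the listed alveolar macrophage identity genes, 2 of 27 promoters did (7.41%). TGCTGAC, part of the Maf recognition element, was in 14 of 279 (5.02%) of the genes at least 8-fold higher, 12 of 471 (2.55%) of those at least 8-fold lower and 275 of 7797 in all (3.53%). A match of letters is a description and not a binding site.

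Interferon stimulated genes were lower in mexAM almost throughout. Of 49 tested, 0 were higher and 45 were lower, with a median log2 change of -4.40, or -4.25 with genes at 0 counts set to their bound. The number called lower was 43 to 47 under every alternative tried. Ifit2, which binds foreign RNA, had 0, 0.493 and 0 CPM in mexAM and 129, 89.3 and 51.2 CPM in BMDM, 592-fold lower (95% interval 106 to 23421). Ifit3 had 0, 0.493 and 0 CPM in mexAM and 78.0, 59.5 and 43.6 CPM in BMDM, 393-fold lower (95% interval 70.0 to 15554). Oasl2, of the oligoadenylate synthetase family that senses double-stranded RNA, had 0.578, 0 and 0 CPM in mexAM and 102, 91.3 and 83.7 CPM in BMDM, 588-fold lower (95% interval 105 to 23286). Each of these 3 genes had at most 1 count in the 3 mexAM libraries together. Usp18, which removes the ubiquitin-like protein ISG15 from its targets, had 0 counts in mexAM and 24.5, 29.1 and 17.4 CPM in BMDM, at least 49.7-fold lower. Oas2 had 0 counts in mexAM and 16.2, 21.4 and 23.8 CPM in BMDM, at least 42.1-fold lower. Ly6e, a surface protein of this group with a high level, had 60.1, 40.5 and 48.9 CPM in mexAM and 856, 778 and 531 CPM in BMDM (-3.86 ± 0.25, edgeR adjusted p = 1.49e-09). The 4 members that were not called were Ifi27, Ifi35, Isg20 and Eif2ak2. Ifi27, a protein of the inner nuclear membrane and mitochondria, had 74.0, 86.3 and 65.7 CPM in mexAM and 60.5, 67.3 and 64.5 CPM in BMDM (0.23 ± 0.20, edgeR adjusted p = 0.356).

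The promoters of Isg15, Ifit1, Ifit3 and Ifit3b each held 3 matches to GAAANNGAA, the core of the element that interferon-activated factors recognise, on 1 strand or the other. Those of Isg15, Ifit1 and Ifit3 are printed. They are RefSeq sequences (GRCm38.p6), 250 bases before the start, 5′ to 3′ on the strand of the gene, with the matches in capitals: Isg15 at chr4:156200819-156201068 (minus strand), Ifit1 at chr19:34640639-34640888 (plus strand) and Ifit3 at chr19:34583279-34583528 (plus strand).
Isg15: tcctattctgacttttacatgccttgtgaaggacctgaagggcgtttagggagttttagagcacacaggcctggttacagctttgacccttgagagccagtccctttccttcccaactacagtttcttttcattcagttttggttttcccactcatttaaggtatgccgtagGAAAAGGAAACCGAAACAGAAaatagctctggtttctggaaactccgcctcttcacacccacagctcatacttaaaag
Ifit1: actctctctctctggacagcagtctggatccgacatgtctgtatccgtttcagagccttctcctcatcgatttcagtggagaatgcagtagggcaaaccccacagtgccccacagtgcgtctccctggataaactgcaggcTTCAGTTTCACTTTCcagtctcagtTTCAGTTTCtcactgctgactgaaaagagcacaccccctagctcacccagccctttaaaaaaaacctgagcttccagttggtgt
Ifit3: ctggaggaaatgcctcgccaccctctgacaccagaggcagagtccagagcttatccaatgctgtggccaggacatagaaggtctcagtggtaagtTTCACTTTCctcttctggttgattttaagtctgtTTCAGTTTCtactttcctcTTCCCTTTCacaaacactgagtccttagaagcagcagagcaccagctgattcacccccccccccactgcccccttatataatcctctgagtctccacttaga
In Isg15 the matches overlap in a single run, and in Ifit1 the first pair overlaps. Isg15 had 1.16, 1.48 and 3.52 CPM in mexAM and 48.2, 58.9 and 53.5 CPM in BMDM (log2 change -4.56 ± 0.52), and Ifit1 had 0, 0 and 1.17 CPM in mexAM and 132, 104 and 65.1 CPM in BMDM, 218-fold lower (95% interval 74.1 to 1059). Among 36 listed genes with a promoter in the table, 22 held the letters (61.1%), against 578 of 7797 promoters of all tested genes (7.41%). They were in 16 of 279 promoters of genes called at least 8-fold higher (5.73%) and in 64 of 471 called at least 8-fold lower (13.6%). With the listed genes left out of the last group, 52 of 451 held them (11.5%). Other lists held them too, in 10 of 36 promoters of monocyte and bone marrow macrophage genes (27.8%). The shares were 4 of 19 for class I presentation (21.1%) and 5 of 27 for alveolar macrophage identity (18.5%). These shares count matches in 300 bases, 250 before the start and 50 after it. In the 250 bases before the start alone, 19 of the 36 listed genes held the letters. Ifit2 and Oasl2, both strongly lower in mexAM, had no match in either window.

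Antigen presentation genes were lower in mexAM for both classes of molecule. For class I, which displays peptides from within the cell, 0 of 23 tested genes were higher and 16 were lower, with a median log2 change of -1.59. B2m, the light chain of class I molecules, had 1682, 2148 and 2228 CPM in mexAM and 6921, 5473 and 5884 CPM in BMDM (-1.59 ± 0.22, edgeR adjusted p = 1.45e-05). Tap1, a peptide transporter, had 19.7, 14.8 and 11.7 CPM in mexAM and 71.4, 77.7 and 77.3 CPM in BMDM (-2.31 ± 0.30), and Nlrc5, the transactivator of class I genes, had 0, 0.493 and 0 CPM in mexAM and 11.4, 10.4 and 11.1 CPM in BMDM, 69.4-fold lower (95% interval 12 to 2787). For class II, which displays ingested peptides, 1 of 17 tested genes was higher and 12 were lower, with a median of -2.81, or -2.03 with genes at 0 counts set to their bound. H2-Aa, a class II chain, had 5.20, 5.92 and 5.08 CPM in mexAM and 267, 201 and 552 CPM in BMDM (-5.96 ± 0.45, edgeR adjusted p = 2.8e-08), and Cd74, the invariant chain, had 5.20, 4.93 and 2.35 CPM in mexAM and 94.2, 97.7 and 319.8 CPM in BMDM (-5.38 ± 0.52, edgeR adjusted p = 9.81e-07). BMDM of mouse 4 was the highest BMDM library for H2-Aa, H2-Ab1, H2-Eb1 and Cd74. Without it, 10 class II list members were called lower, and the changes were -5.42 for H2-Aa and -4.55 for Cd74. Cd86, a costimulatory ligand for T cells, had 2.31, 0.493 and 2.74 CPM in mexAM and 58.7, 69.2 and 29.6 CPM in BMDM (-4.74 ± 0.48). Class II genes are also made by dendritic cells and B cells, whose listed markers are given below. H2 genes share sequence among themselves, so their individual counts are uncertain.

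Receptors for microbes and particles were mostly, but not all, lower in mexAM. Of 22 tested Toll-like receptor genes and co-factors, 1 was higher and 11 were lower. Ly86, the partner of the Toll-like receptor homologue Cd180, had 1.16, 0.493 and 0.391 CPM in mexAM and 177, 153 and 146 CPM in BMDM (-7.80 ± 0.35), and Unc93b1, which escorts nucleic acid sensors to endosomes, had 84.4, 135 and 106 CPM in mexAM and 789, 687 and 591 CPM in BMDM (-2.67 ± 0.24). The adaptor kinase Irak4 did not separate the cultures, with 102, 65.6 and 77.4 CPM in mexAM and 93.8, 90.0 and 62.2 CPM in BMDM (-0.01 ± 0.22, edgeR adjusted p = 0.984). Among 11 tested antibody receptor genes, 2 were higher and 8 were lower. Fcgr1, the high affinity receptor for IgG, had 0.578, 1.48 and 0.782 CPM in mexAM and 109.5, 97.1 and 125 CPM in BMDM (-6.75 ± 0.38, edgeR adjusted p = 2.8e-10), whereas Fcgr4, another activating receptor, had 231, 243 and 308 CPM in mexAM and 35.5, 23.9 and 55.2 CPM in BMDM (2.77 ± 0.26, edgeR adjusted p = 1.16e-07). Fcgr2b, the inhibitory receptor, had 7.52, 0.493 and 69.6 CPM in mexAM and 235, 218 and 138 CPM in BMDM (-2.86 ± 0.80, edgeR adjusted p = 0.0111), the mexAM library of mouse 4 being far above that of mouse 2. The call was lost without mexAM of mouse 1 (adjusted p = 0.0536) and in a fit of the 6 libraries with mouse as a block (adjusted p = 0.145), and the change was -5.66 without mexAM of mouse 4.

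Of 19 tested C-type lectin receptors, 6 were higher in mexAM and 11 were lower. Ly75, the endocytic receptor DEC-205, had 579, 412 and 307 CPM in mexAM and 3.94, 7.12 and 2.91 CPM in BMDM (6.55 ± 0.37, edgeR adjusted p = 2.8e-10), and Clec4a1 had 1.74, 0.987 and 0.391 CPM in mexAM and 312, 233 and 264 CPM in BMDM (-8.03 ± 0.46, edgeR adjusted p = 3.51e-10). Clec10a, a galactose-binding lectin, had 1.74, 0 and 0.391 CPM in mexAM and 106, 79.0 and 71.5 CPM in BMDM (-6.91 ± 0.53). Siglecs and paired receptors, which mostly dampen myeloid signalling, were 12 higher and 7 lower of 27 tested. Cd300lf, which binds phospholipids, had 538, 332 and 359 CPM in mexAM and 18.8, 27.2 and 18.02 CPM in BMDM (4.27 ± 0.38, edgeR adjusted p = 1.8e-07), Lilra5 changed by 6.28 ± 0.36, and Treml4 by 4.42 ± 0.47. Cd22, a Siglec best known from B cells, had 97.7, 74.98 and 54.4 CPM in mexAM and 4.38, 3.24 and 6.39 CPM in BMDM (3.98 ± 0.48). The part of B cells in its level was not tested. Sirpa, the receptor for the signal CD47 gives to macrophages, had 678, 777 and 933 CPM in mexAM and 940.1, 975 and 994 CPM in BMDM, without overlap, and was not called (-0.28 ± 0.19). Cxcl16, a membrane-bound chemokine that also binds oxidised lipoprotein, had 0.578, 0.987 and 0.782 CPM in mexAM and 362, 363 and 352 CPM in BMDM (-8.69 ± 0.49), and of 11 tested scavenger receptors 4 were higher and 5 were lower. Stab1, which encodes stabilin-1, had 0 counts in mexAM and 297, 362 and 187 CPM in BMDM, at least 592-fold lower, the furthest of these receptors from no change. Of 24 tested genes of dying cell uptake, 4 were higher, Mertk among them, and 12 were lower, including the bridging ligand Gas6 with 0.578, 1.97 and 0.391 CPM in mexAM and 209.8, 232 and 162 CPM in BMDM (-7.61 ± 0.38).

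Tested chemokine ligand genes were lower or not called in mexAM with 1 exception, and receptor genes went in both directions. Of 20 tested ligands, 9 were lower and 1, Ccl6, was higher. Ccl6, made by macrophages of mice, had 17499.5, 20519 and 17369 CPM in mexAM and 287, 291 and 734 CPM in BMDM (5.40 ± 0.36, edgeR adjusted p = 1.57e-09) and was one of the most counted genes in mexAM. Its neighbour family member Ccl9 had 402, 555 and 839.9 CPM in mexAM and 391, 394 and 813 CPM in BMDM and was not called (0.17 ± 0.46). Ccl5, which attracts T cells and monocytes, had 0, 0.493 and 0 CPM in mexAM and 76.2, 53.7 and 50 CPM in BMDM, 390.4-fold lower (95% interval 69.6 to 15464), and Cxcl10, an interferon-induced ligand, had 0.578, 2.96 and 0 CPM in mexAM and 93.3, 83.5 and 24.4 CPM in BMDM (-5.82 ± 0.97, or -7.75 without mexAM of mouse 2 and -5.12 without mexAM of mouse 4). Among 18 tested receptors, 4 were higher and 7 were lower. Cmklr1, the chemerin receptor, had 0 counts in mexAM and 70.5, 69.2 and 65.7 CPM in BMDM, at least 144-fold lower. In the other direction, Cxcr2, a receptor best known from neutrophils, had 159, 389 and 184 CPM in mexAM and 15.8, 7.77 and 27.3 CPM in BMDM (3.83 ± 0.42, edgeR adjusted p = 2.91e-06), and Fpr1, a receptor for bacterial formyl peptides, had 657, 631 and 472 CPM in mexAM and 20.1, 22.01 and 15.1 CPM in BMDM (4.94 ± 0.30, edgeR adjusted p = 6.18e-10).

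Cytokine and lipid mediator genes went in both directions. Of 21 tested IL-1 and TNF family genes, 5 were higher in mexAM and 12 were lower. Il18 had 340.0, 267 and 284 CPM in mexAM and 17.96, 15.5 and 17.4 CPM in BMDM (4.12 ± 0.24, edgeR adjusted p = 3.62e-10), while its soluble inhibitor Il18bp had 0.578, 0 and 0.391 CPM in mexAM and 16.6, 5.83 and 15.1 CPM in BMDM, 41.5-fold lower (95% interval 11.1 to 349.5). Il1a had 49.1, 95.7 and 134 CPM in mexAM and 2.19, 0.647 and 2.33 CPM in BMDM (5.65 ± 1.07, edgeR adjusted p = 0.000919). Leukotriene and prostaglandin enzymes were 7 higher and 8 lower of 24 tested. Ltc4s, which makes leukotriene C4, had 232, 251 and 229.5 CPM in mexAM and 10.5, 11.7 and 1.74 CPM in BMDM (4.87 ± 0.36, edgeR adjusted p = 1.11e-08), and Ephx2, which hydrolyses fatty acid epoxides, had 114, 146 and 118 CPM in mexAM and 0.438, 0.647 and 0 CPM in BMDM, 351-fold higher (95% interval 96.7 to 2899.7). Pla2g7, the lipase that inactivates platelet activating factor, had 1.16, 0.493 and 1.56 CPM in mexAM and 361, 389 and 349 CPM in BMDM (-8.28 ± 0.37, edgeR adjusted p = 2.04e-11), and Hpgd, which inactivates prostaglandins, had 0, 0 and 1.17 CPM in mexAM and 101, 89.3 and 31.4 CPM in BMDM, 160.1-fold lower (95% interval 54.4 to 779.5). Alox5ap, the activating protein of 5-lipoxygenase, overlapped between the cultures, with 1019.9, 546 and 642 CPM in mexAM and 765, 638 and 631 CPM in BMDM. Of 15 tested genes of alternative activation, 4 were higher and 6 were lower. Tgm2, a transglutaminase, was higher, with 629, 718 and 728 CPM in mexAM and 66.6, 51.8 and 64.0 CPM in BMDM (3.50 ± 0.36), and Chil1 was lower, with 0, 0 and 0.391 CPM in mexAM and 15.3, 14.2 and 21.5 CPM in BMDM, 107-fold lower (95% interval 18.7 to 4270.2).

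Among the lists with 10 or more tested genes, sterol synthesis had the highest share called in 1 direction. All 23 tested genes of the cholesterol list were higher in mexAM, with a median log2 change of 3.39, and 23 or 24 were called higher under each alternative. Hmgcs1 (ENSMUSG00000093930, chr13:119690379-119708260, plus strand), which makes the precursor of mevalonate, had 1525, 1607 and 1377 CPM in mexAM and 55.2, 64.7 and 34.9 CPM in BMDM (4.86 ± 0.24, edgeR adjusted p = 6.72e-11). Mvd, further along the mevalonate pathway, had 329, 186 and 162 CPM in mexAM and 7.45, 10.4 and 9.88 CPM in BMDM (4.62 ± 0.49, edgeR adjusted p = 2.39e-06), and Fdps, which makes farnesyl pyrophosphate, had 106, 87.8 and 109.9 CPM in mexAM and 3.94, 5.18 and 2.91 CPM in BMDM (4.64 ± 0.29, edgeR adjusted p = 7.96e-10). Among the enzymes after the sterol ring is closed, Hsd17b7 had 146, 150.0 and 113 CPM in mexAM and 10.5, 2.59 and 6.98 CPM in BMDM (4.26 ± 0.36), and Ebp changed least of the named genes, with 139, 106 and 93.1 CPM in mexAM and 42.0, 51.8 and 62.8 CPM in BMDM (1.11 ± 0.23, edgeR adjusted p = 0.000659). The mexAM and BMDM values did not overlap in any of these 5 genes.

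The promoter of Hmgcs1 is shown because it was the 1 promoter among 16 of the cholesterol list that held TCACCCCAC, letters that the sterol-responsive factors SREBP are known to bind (RefSeq, GRCm38.p6, chr13:119690101-119690350, plus strand, 250 bases before the start, match in capitals).
Hmgcs1: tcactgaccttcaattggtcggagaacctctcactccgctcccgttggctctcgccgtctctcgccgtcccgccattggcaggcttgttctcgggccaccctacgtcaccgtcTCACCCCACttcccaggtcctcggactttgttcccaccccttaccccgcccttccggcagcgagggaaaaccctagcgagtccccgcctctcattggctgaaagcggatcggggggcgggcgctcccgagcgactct
The letters were in 40 of 7797 promoters of tested genes (0.513%), in 1 of 279 called at least 8-fold higher (0.358%) and in 4 of 471 called at least 8-fold lower (0.849%), and the absence of a match in the other 15 says only that these letters are not in their windows.

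Fatty acid genes changed in the same direction. Of 20 tested synthesis genes, 16 were higher and 0 were lower, with a median of 1.75. Fasn, fatty acid synthase, had 342, 256 and 193.5 CPM in mexAM and 10.5, 7.77 and 9.88 CPM in BMDM (4.79 ± 0.30, edgeR adjusted p = 1.05e-09), and Acaca, which supplies its substrate, had 74.0, 45.4 and 44.6 CPM in mexAM and 5.26, 7.77 and 3.49 CPM in BMDM (3.30 ± 0.36, edgeR adjusted p = 7.98e-07). The desaturase Scd1 had 628, 462 and 1028 CPM in mexAM and 2.63, 1.94 and 5.23 CPM in BMDM (7.73 ± 0.55, edgeR adjusted p = 3.61e-08), and Scd2 changed by 5.30 ± 0.59. The 2 desaturases are close paralogues. Fatty acid oxidation genes were 27 higher and 0 lower of 36 tested, with a median of 1.65. Acaa1b, a thiolase of peroxisomes, had 2811, 2483 and 2404 CPM in mexAM and 6.13, 4.53 and 2.33 CPM in BMDM (9.15 ± 0.37, edgeR adjusted p = 1.13e-11). Acaa1a is a near copy of Acaa1b, so the split of reads between them is uncertain. Acadm, which acts on chains of medium length in mitochondria, overlapped, with 40.5, 67.6 and 74.7 CPM in mexAM and 83.7, 66.7 and 65.1 CPM in BMDM (-0.23 ± 0.22, edgeR adjusted p = 0.417).

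Lipid storage and uptake genes gave 20 higher and 1 lower of 25 tested, with a median of 3.32. Plin1, a coat protein of lipid droplets, had 86.7, 78.9 and 88.0 CPM in mexAM and 0.438, 0 and 0 CPM in BMDM, 470.1-fold higher (95% interval 84.0 to 18600.5), and Mgll, which completes the breakdown of stored triglyceride, had 942, 1028 and 1147 CPM in mexAM and 5.26, 8.41 and 8.14 CPM in BMDM (7.17 ± 0.33, edgeR adjusted p = 2.4e-11). Hilpda, a droplet protein that hypoxia induces, had 379.9, 99.2 and 546 CPM in mexAM and 23.7, 23.9 and 46.5 CPM in BMDM (3.45 ± 0.71, edgeR adjusted p = 0.00171), with mexAM of mouse 2 far below the other 2. Lipa, the lysosomal acid lipase, overlapped, with 1213, 1651 and 1108 CPM in mexAM and 1327, 1138 and 1530.2 CPM in BMDM (-0.01 ± 0.34, edgeR adjusted p = 0.99). Lpl, lipoprotein lipase, was abundant in both cultures, with 7673, 8496 and 8399 CPM in mexAM and 2842, 2489.8 and 6813 CPM in BMDM (1.02 ± 0.33, edgeR adjusted p = 0.0168). It was not called without BMDM of mouse 1 (adjusted p = 0.0993) or of mouse 2 (adjusted p = 0.0944), and the change was 1.62 without BMDM of mouse 4. Cd36, the fatty acid transporter, had 1324, 1925 and 1561 CPM in mexAM and 316, 291 and 1109 CPM in BMDM, without overlap, and was not called (1.49 ± 0.57, edgeR adjusted p = 0.0514). Without BMDM of mouse 4, which was the highest of its culture for both genes, Cd36 changed by 2.40 (adjusted p = 0.00188), and a fit of the 6 libraries gave an adjusted p of 0.0404, or 0.00743 with mouse as a block.

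Cholesterol export was split between its transporters. Abcg1, which unloads cholesterol to mature lipoprotein and is prominent in alveolar macrophages, had 794, 1639 and 1636 CPM in mexAM and 126, 106 and 181 CPM in BMDM (3.30 ± 0.29, edgeR adjusted p = 5.68e-08). Abca1, which loads the lipid-poor protein APOA1, had 2.89, 3.45 and 9.38 CPM in mexAM and 313, 255 and 198 CPM in BMDM (-5.51 ± 0.36, edgeR adjusted p = 1.49e-09, or -6.28 without mexAM of mouse 4), and Cyp27a1, which makes an oxysterol, had 0 counts in mexAM and 64.4, 44.7 and 38.95 CPM in BMDM, at least 107-fold lower. Lpcat3, which remodels phospholipids, was higher by 3.02 ± 0.20, whereas Lpcat1 and Lpcat2 were lower, with changes of -3.14 ± 0.34 and -2.61 ± 0.44. Over 22 tested genes of efflux and LXR targets, 9 were higher and 5 were lower. The surfactant protein genes Sftpc, Sftpa1 and Sftpb had 0 counts in all 6 libraries.

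**Figure D4:**
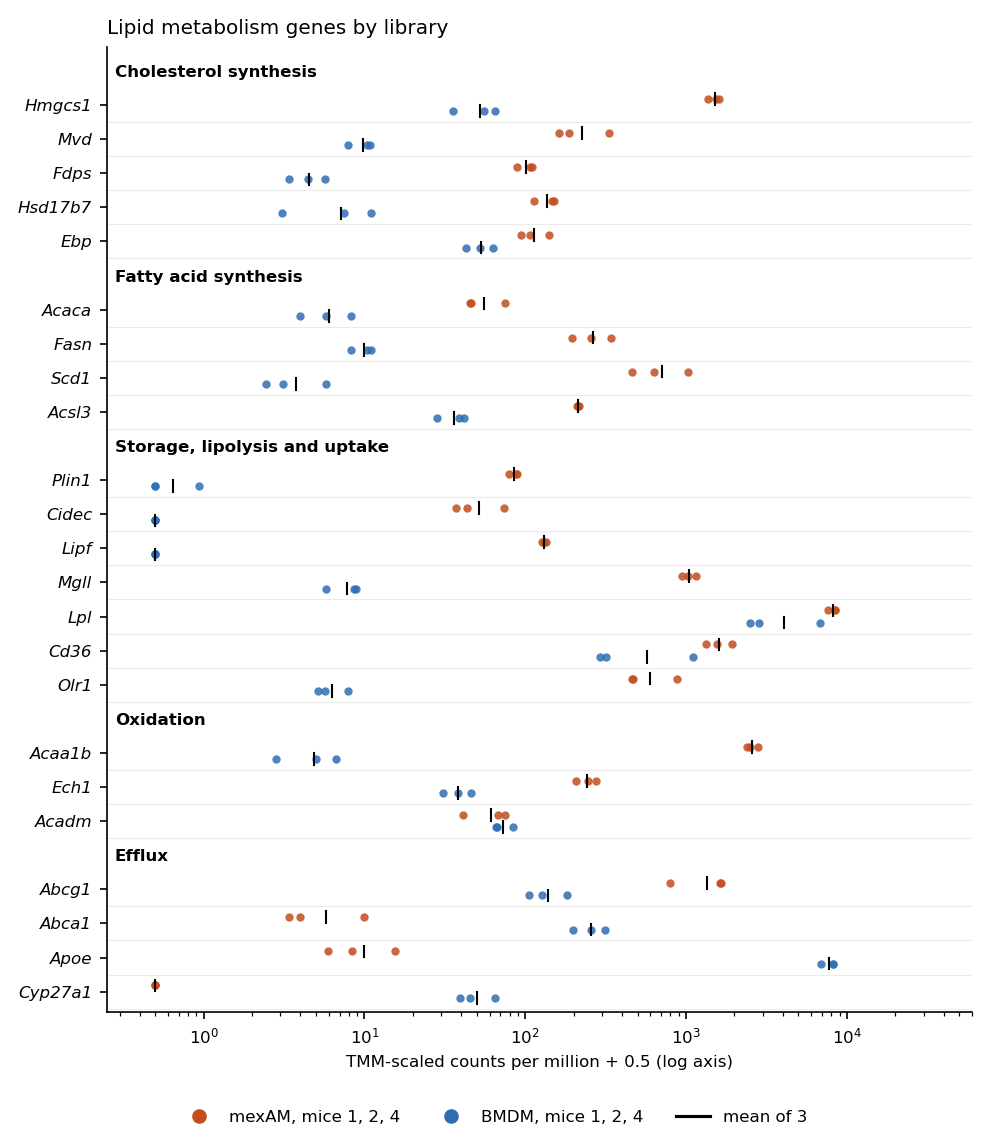
Level of lipid genes in the 3 mexAM libraries (upper of each pair) and the 3 BMDM libraries (lower), as CPM plus 0.5 on a log axis, 1 dot per library, black tick at the mean of 3. The sterol and fatty acid synthesis genes shown lie to the right in mexAM without overlap, Abca1, Apoe and Cyp27a1 lie to the right in BMDM, and Acadm overlaps.

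Genes of mitochondrial respiration were moderately higher in mexAM. Of 56 tested nuclear genes of the respiratory chain, 40 were higher and 0 were lower, with a median log2 change of 0.87. Cox5a, a subunit of cytochrome oxidase, had 603, 780.3 and 721 CPM in mexAM and 286, 212 and 279 CPM in BMDM (1.44 ± 0.19, edgeR adjusted p = 6.25e-06), Ndufv3 of complex I had 264, 197 and 261 CPM in mexAM and 61.3, 35.6 and 45.9 CPM in BMDM (2.32 ± 0.34, edgeR adjusted p = 4.27e-05), and Cycs, cytochrome c, had 55.5, 43.4 and 45.4 CPM in mexAM and 9.64, 9.71 and 19.2 CPM in BMDM (1.91 ± 0.26, edgeR adjusted p = 1.04e-05). Sdhc, of complex II, overlapped (-0.07 ± 0.22). Tricarboxylic acid cycle genes were 16 higher and 1 lower of 26 tested. Me2, the mitochondrial malic enzyme, had 53.2, 103 and 83.7 CPM in mexAM and 10.9, 7.77 and 11.6 CPM in BMDM (2.96 ± 0.34, edgeR adjusted p = 1.52e-06). The 1 lower gene, Acod1, makes the antimicrobial metabolite itaconate and had 6.36, 7.89 and 3.13 CPM in mexAM and 46.0, 33.7 and 13.9 CPM in BMDM (-2.47 ± 0.59, edgeR adjusted p = 0.00365). The share of counts from the mitochondrial genome itself was 10.7% ± 1.21 in mexAM and 9.91% ± 0.837 in BMDM (SD, n = 3 each, exact permutation test, p = 0.4). Of 43 tested ribosomal protein genes, 6 were higher in mexAM and 1 was lower, and 1 was higher without BMDM of mouse 1, and 3 were higher without BMDM of mouse 2, mexAM of mouse 2 or mexAM of mouse 4. Of 10 tested mitochondrially encoded genes, 4 were higher and 0 were lower. The list of nuclear-retained RNAs also held ribosomal RNA loci such as Gm42418. Of its 5 tested members, 1 was higher and 2 were lower, Malat1 and a ribosomal RNA locus. Without BMDM of mouse 4, 2 of the mitochondrially encoded genes were higher. Malat1 was not called when any 1 library other than BMDM of mouse 1 was left out. The 1 member of its list that stayed lower in those fits was the ribosomal RNA locus.

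Glycolysis and hypoxia genes were uneven between the mexAM libraries. Of 26 tested glycolysis and pentose phosphate genes, 12 were higher and 5 were lower, but leaving out BMDM of mouse 2 gave 7 higher and 3 lower, and leaving out BMDM of mouse 1 gave 3 lower. Aldoc, an aldolase best known from brain, had 628, 413 and 595 CPM in mexAM and 17.1, 11 and 2.91 CPM in BMDM (5.67 ± 0.45, edgeR adjusted p = 8.61e-08), and Rpia of the pentose phosphate pathway had 139.9, 86.3 and 100.1 CPM in mexAM and 15.3, 14.9 and 9.30 CPM in BMDM (3.03 ± 0.29, edgeR adjusted p = 1.48e-07). The glucose transporter Slc2a3 had 0 counts in mexAM and 20.1, 11.7 and 27.9 CPM in BMDM, at least 42.5-fold lower, whereas Slc2a1 had 105, 37.0 and 324 CPM in mexAM and 60.5, 52.4 and 76.7 CPM in BMDM and was not called (1.30 ± 0.54, edgeR adjusted p = 0.0691). Without mexAM of mouse 2, the lowest mexAM library for Slc2a1, the adjusted p was 0.000397. Egln3, an oxygen-sensing hydroxylase that hypoxia induces, had 93.1, 35.5 and 356 CPM in mexAM and 0.876, 1.94 and 6.39 CPM in BMDM (5.76 ± 0.91, edgeR adjusted p = 0.00023). Its change was 4.42 without mexAM of mouse 4 and 6.87 without BMDM of mouse 4. Slc2a1, Egln3, Tpi1 and Hilpda were each highest in mexAM of mouse 4 and lowest in mexAM of mouse 2. Epas1, which encodes HIF-2α, was more even, with 84.4, 143 and 121 CPM in mexAM and 6.13, 7.77 and 4.65 CPM in BMDM (4.22 ± 0.29, edgeR adjusted p = 2.58e-09). Vegfa, a vascular growth factor, was lower in mexAM, with 3.47, 0.987 and 39.1 CPM in mexAM and 148, 87.4 and 123 CPM in BMDM (-2.94 ± 0.70, edgeR adjusted p = 0.00454), or -5.75 without mexAM of mouse 4. Hypoxia genes were 7 higher and 5 lower of 18 tested, or 3 lower without mexAM of mouse 1 and in a fit of the 6 libraries with mouse as a block.

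A few metal handling genes differed by large factors. The metallothioneins Mt1 and Mt2 bind zinc and copper. Of 16 tested metallothionein and zinc transporter genes, 4 were higher (25%), 4 were lower (25%) and 8 were not called, with 2 lower without BMDM of mouse 1. Those shares are near the 21.5% higher and 23% lower over all tested genes. Mt1 had 12591, 11100.4 and 15265 CPM in mexAM and 427, 436 and 522 CPM in BMDM (4.81 ± 0.26, edgeR adjusted p = 1.53e-10), and Mt2 had 5376, 5348 and 8707 CPM in mexAM and 71.8, 88.0 and 81.4 CPM in BMDM (6.33 ± 0.33, edgeR adjusted p = 9.03e-11). Iron genes were 7 higher and 9 lower of 21 tested. Slc40a1, the iron exporter ferroportin, had 12.7, 16.3 and 5.87 CPM in mexAM and 246, 225 and 146 CPM in BMDM (-4.17 ± 0.44, edgeR adjusted p = 1.97e-06), and Slc11a1, which pumps metal ions out of phagosomes, had 2.31, 4.93 and 1.56 CPM in mexAM and 156, 159 and 195 CPM in BMDM (-5.85 ± 0.39, edgeR adjusted p = 1.6e-09). Cp, the ferroxidase ceruloplasmin, had 0 counts in mexAM and 48.6, 51.1 and 32.0 CPM in BMDM, at least 93.0-fold lower. Hmox1, which opens the haem ring, overlapped, with 262, 265 and 305 CPM in mexAM and 259.8, 291 and 502 CPM in BMDM (-0.34 ± 0.33, edgeR adjusted p = 0.429), as did the ferritin heavy chain gene Fth1 (0.34 ± 0.30). Of 28 tested genes of the oxidative stress response, 8 were higher (28.6%) and 5 were lower (17.9%). Sod1, a superoxide dismutase, had 1052, 889 and 784 CPM in mexAM and 248, 243 and 356 CPM in BMDM (1.69 ± 0.22, edgeR adjusted p = 6.03e-06).

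Lysosome genes were balanced in number, with 19 higher (31.67%) and 16 lower (26.67%) of 60 tested, against 21.5% and 23% over all tested genes. Among the cathepsins, Ctsd had 9839.6, 10821 and 6781 CPM in mexAM and 2213, 2494 and 3452 CPM in BMDM (1.75 ± 0.31, edgeR adjusted p = 0.000156), whereas Ctsb had 1276, 1988 and 1519 CPM in mexAM and 6182, 5659 and 7739 CPM in BMDM (-2.03 ± 0.23, edgeR adjusted p = 1.27e-06) and Ctss had 1754, 1725 and 1334 CPM in mexAM and 4466, 4111 and 5057 CPM in BMDM (-1.50 ± 0.21, edgeR adjusted p = 1.36e-05). Cst3, the secreted cathepsin inhibitor cystatin C, had 87.9, 188 and 163 CPM in mexAM and 894, 849 and 1269 CPM in BMDM (-2.77 ± 0.27), and the protease Lgmn had 124, 129 and 132 CPM in mexAM and 678, 648 and 731 CPM in BMDM (-2.42 ± 0.18). No values of these 5 genes overlapped between the cultures.

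Cell cycle genes were higher in mexAM, in numbers that varied with the libraries included. Mki67, a nuclear protein of dividing cells, had 114, 95.7 and 101 CPM in mexAM and 19.3, 22.6 and 35.5 CPM in BMDM (2.01 ± 0.29, edgeR adjusted p = 1.96e-05). Kif23, a kinesin of cell division, had 106, 63.6 and 108 CPM in mexAM and 23.7, 11 and 25.6 CPM in BMDM (2.18 ± 0.31, edgeR adjusted p = 1.67e-05), and Cdc25b, a phosphatase that starts mitosis, had 140.5, 49.3 and 85.2 CPM in mexAM and 11.8, 11 and 14.5 CPM in BMDM (2.87 ± 0.33, edgeR adjusted p = 1.45e-06). Of 47 tested mitosis and spindle genes, 36 were higher and 1 was lower, with a median of 1.5. The number higher was 41 without BMDM of mouse 4, 28 without mexAM of mouse 4, and 18 without BMDM of mouse 1 or without BMDM of mouse 2. Of 43 tested DNA replication genes, 20 were higher and 0 were lower, with a median of 0.73. That number was 29 without BMDM of mouse 4, 15 without mexAM of mouse 4, 9 without BMDM of mouse 2, 7 without BMDM of mouse 1 and 9 with DESeq2. Pcna, the sliding clamp of DNA polymerase, had 123, 113 and 131 CPM in mexAM and 67.9, 51.8 and 165 CPM in BMDM and was not called (0.37 ± 0.32, edgeR adjusted p = 0.366), but passed without BMDM of mouse 4 (1.03, adjusted p = 0.00159). BMDM of mouse 4 had the highest BMDM level of Mki67, Ccnb1, Bub1, Nusap1, Tk1 and Pcna. Without it the change was 3.31 for Tk1, against 1.96 ± 0.51 with it.

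Inhibitors of the cycle did not move together. Cdkn2a, which encodes the inhibitors p16INK4a and p19ARF from overlapping frames, had 60.7, 102 and 50.4 CPM in mexAM and 0, 0 and 2.33 CPM in BMDM (6.47 ± 0.59, edgeR adjusted p = 1.51e-07). All its BMDM counts came from mouse 4. Cdkn1a, which encodes p21, had 198, 76.5 and 339 CPM in mexAM and 365, 302 and 281 CPM in BMDM and was not called (-0.63 ± 0.42, edgeR adjusted p = 0.246); without mexAM of mouse 4 it was lower in mexAM (-1.20, adjusted p = 0.0271). Phlda3, a p53 target, had 175, 154 and 105 CPM in mexAM and 4.82, 1.94 and 4.65 CPM in BMDM (5.17 ± 0.41, edgeR adjusted p = 3.21e-08), and Sesn1, another, had 4.63, 6.91 and 2.74 CPM in mexAM and 237, 209.7 and 123 CPM in BMDM (-5.33 ± 0.34, edgeR adjusted p = 1.22e-09). Of 26 tested genes of the list, 5 were higher and 9 were lower, or 3 higher without mexAM of mouse 4, BMDM of mouse 1 or BMDM of mouse 2, and in a fit of the 6 libraries with mouse as a block.

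Stress genes went in both directions, with some shares near those over all tested genes (21.5% higher and 23% lower). The unfolded protein response list had 17.9% higher and 28.6% lower, and the immediate early list had 22.2% higher and 18.5% lower. Of 28 tested genes of the unfolded protein response, 5 were higher and 8 were lower, and 5 were lower without BMDM of mouse 4. Atf4, the factor of the integrated stress response, had 977, 509 and 611 CPM in mexAM and 219, 207 and 348 CPM in BMDM (1.44 ± 0.26, edgeR adjusted p = 0.000191), and Atf6, a membrane-bound sensor, had 17.9, 25.2 and 25.02 CPM in mexAM and 95.1, 105 and 85.5 CPM in BMDM (-2.05 ± 0.23, edgeR adjusted p = 1.26e-06). The chaperone gene Hspa5 overlapped (-0.36 ± 0.27, edgeR adjusted p = 0.294) and was called lower without mexAM of mouse 1 (adjusted p = 0.0408). Heat shock genes were 6 higher and 1 lower of 15 tested, with 3 higher without BMDM of mouse 1 and 2 higher without BMDM of mouse 2. Among immediate early genes, Fosb had 139.9, 141 and 82.5 CPM in mexAM and 3.94, 4.53 and 2.91 CPM in BMDM (4.97 ± 0.80, edgeR adjusted p = 0.000258), and Junb overlapped, with 223, 115 and 299.5 CPM in mexAM and 222, 193.5 and 220.3 CPM in BMDM (0.01 ± 0.31). Nfkbiz, a nuclear protein of the IκB family, had 10.99, 10.8 and 8.21 CPM in mexAM and 84.5, 83.5 and 57.6 CPM in BMDM (-2.92 ± 0.39, edgeR adjusted p = 1.4e-05). That list had 6 higher and 5 lower of 27 tested, with 3 lower without BMDM of mouse 1 or 2.

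Matrix genes were mostly lower in mexAM. Of 32 tested matrix proteins and proteases, 3 were higher and 24 were lower, with a median of -4.41, or -4.12 with genes at 0 counts set to their bound. Mmp14, a membrane-bound collagenase, had 0.578, 0 and 0 CPM in mexAM and 106, 100.3 and 100 CPM in BMDM, 649-fold lower (95% interval 116 to 25669), and Adam8, a protease of activated leukocytes, had 0.578, 0 and 0 CPM in mexAM and 184, 125 and 409.9 CPM in BMDM, 1500.1-fold lower (95% interval 269 to 59295). Sparc, a matrix glycoprotein, had 0 counts in mexAM and 29.8, 35.6 and 100 CPM in BMDM, at least 112-fold lower, and Col1a2, a collagen chain, had 0.578, 0 and 0 CPM in mexAM and 65.7, 60.2 and 184 CPM in BMDM, 636-fold lower (95% interval 114 to 25174). BMDM of mouse 4 held the highest level of Adam8, Sparc, Col1a2 and Mmp12, and Mmp12, the macrophage elastase, had 2.89, 2.47 and 3.91 CPM in mexAM and 65.3, 68.6 and 724 CPM in BMDM (-6.47 ± 1.02, edgeR adjusted p = 0.000224), or -4.38 without that library. Sparc and the collagens are fibroblast products, and the listed markers of fibroblasts, endothelium and mesothelium summed to 3.52 to 6.36 CPM in mexAM and 124 to 336 CPM in BMDM, again highest in mouse 4. Their part in the matrix result was not tested. Without BMDM of mouse 4 the counts were 3 higher and 24 lower.

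Of 25 tested integrin and adhesion genes, 8 were higher and 12 were lower. Cdh1, which encodes E-cadherin, had 111, 48.8 and 59.0 CPM in mexAM and 0.438, 0 and 4.07 CPM in BMDM (5.57 ± 0.57, edgeR adjusted p = 9.4e-07, or 7.75 without BMDM of mouse 4), and Cd9, a tetraspanin, had 2666, 3561 and 2464 CPM in mexAM and 304, 302 and 354 CPM in BMDM (3.18 ± 0.24, edgeR adjusted p = 8.23e-09). Actin and motility genes were 11 higher (26.19%) and 13 lower (30.95%) of 42 tested, against 21.5% and 23% over all tested genes. Marcks, which links the membrane to actin, had 50.9, 109 and 71.5 CPM in mexAM and 1581, 1293 and 1084 CPM in BMDM (-4.09 ± 0.49, edgeR adjusted p = 1.36e-05), and S100a6, a calcium-binding protein, had 2.89, 0.987 and 1.96 CPM in mexAM and 431, 421 and 991 CPM in BMDM (-8.28 ± 0.60, edgeR adjusted p = 4.24e-08). Actb, which encodes beta-actin, had 11036, 11297 and 12925 CPM in mexAM and 8827, 8605 and 12288 CPM in BMDM and was not called (0.25 ± 0.23), nor was the filamin gene Flna (0.01 ± 0.26).

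Markers of other cells were mostly low, and most were higher in BMDM. Neutrophil markers summed to 338 to 806 CPM in mexAM and 2117 to 5710 CPM in BMDM, with 1 of 11 tested higher and 10 lower in mexAM. S100a9 had 14.4, 7.89 and 5.87 CPM in mexAM and 1017, 768 and 2160.4 CPM in BMDM (-7.16 ± 0.52, edgeR adjusted p = 4.03e-08). S100a8 had 349.8, 396 and 92.3 CPM in mexAM and 1132, 799 and 2214 CPM in BMDM (-2.31 ± 0.47, edgeR adjusted p = 0.00136), a call that a fit of the 6 libraries with mouse as a block did not make (adjusted p = 0.0988). The granule genes Mpo and Elane had 0 counts in mexAM, against 3.50, 1.94 and 25 CPM (Mpo) and 4.82, 4.53 and 16.9 CPM (Elane) in BMDM, highest in mouse 4. Mast cell and eosinophil markers summed to 0.782 to 2.89 CPM in mexAM and 22.7 to 96.5 CPM in BMDM, and dendritic cell markers to 1.48 to 6.94 CPM in mexAM and 34.6 to 52.9 CPM in BMDM. Of the tested markers, 5 of 10 mast cell and eosinophil genes and 4 of 5 dendritic cell genes were lower. Of the mast cell and eosinophil genes, 2 were lower without BMDM of mouse 4 and 3 without mexAM of mouse 4. In a fit of the 6 libraries alone 1 gene of each of these lists was tested, and both were lower. T and NK cell markers stayed at 0.493 to 1.74 CPM in mexAM and 12.9 to 15.1 CPM in BMDM, where Cd4 supplied most of the sum. Of the 14 listed, 10 had 0 counts in mexAM and 6 had 0 counts in BMDM, Cd3e and Cd3g among those 6. B cell markers summed to 59.0 to 104 CPM in mexAM, nearly all of it Cd22, and 121 to 139 CPM in BMDM, most of it Ighm, with 0.578, 0 and 2.74 CPM in mexAM and 119.6, 103 and 83.1 CPM in BMDM. Erythroid and platelet markers summed to 1.48 to 6.36 CPM in mexAM and 795 to 904 CPM in BMDM, nearly all of it Pf4, which macrophages also make. Lung epithelium markers summed to 57.2 to 117 CPM in mexAM and 3.07 to 12.8 CPM in BMDM, most of the mexAM sum being Cdh1, while Scgb1a1, Krt8 and Krt18 had 0 counts in all 6 libraries. The part of such cells in the gene group results was not tested.

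A number of genes were present in 1 culture and without a single count in the other. At 10 CPM or more in all 3 mexAM libraries, 18 genes had 0 counts in BMDM, 17 of them protein coding, and at 10 CPM or more in all 3 BMDM libraries, 61 genes had 0 counts in mexAM. A count of 0 in all libraries of a culture does not show absence, and 3 counts over the 3 libraries is the limit it allows, for counting error alone. Lipf, the gastric lipase gene, had 131, 134 and 126 CPM in mexAM and 0 counts in BMDM, at least 240.4-fold higher in mexAM, and Vipr2, a receptor for vasoactive intestinal peptide, had 121, 191 and 56.3 CPM in mexAM and 0 counts in BMDM, at least 217-fold higher. Vstm2a, an immunoglobulin domain protein, had 85.6, 76.5 and 71.2 CPM in mexAM and 0 counts in BMDM, at least 142-fold higher in mexAM. Slc32a1, the vesicular transporter of inhibitory transmitters in neurons, had 143, 40.5 and 45.4 CPM in mexAM and 0 counts in BMDM, at least 131-fold higher. In the other direction, Fcrls, an Fc receptor-like gene, had 0 counts in mexAM and 471, 412 and 201 CPM in BMDM, at least 781-fold lower. Rnf150, a ubiquitin ligase, had 0 counts in mexAM and 165, 153 and 112 CPM in BMDM, at least 306-fold lower, and Hpse, which cleaves heparan sulfate, had 0 counts in mexAM and 171, 135 and 77.9 CPM in BMDM, at least 278-fold lower. Gpr183, which guides immune cells along oxysterol gradients, had 0 counts in mexAM and 99.4, 108 and 51.7 CPM in BMDM, at least 183-fold lower, and Cd72, a receptor better known from B cells, had 0 counts in mexAM and 61.3, 51.8 and 120.3 CPM in BMDM, at least 162-fold lower. BMDM of mouse 4 was lowest for Hpse and Gpr183 and highest for Cd72.

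Large changes also fell on genes outside these lists. Spag11b, a beta-defensin-like gene of the epididymis, had 3854, 3102 and 2396 CPM in mexAM and 5.70, 7.77 and 1.16 CPM in BMDM (9.30 ± 0.44, edgeR adjusted p = 6.19e-11). Cyp4a12b, a fatty acid hydroxylase, had 967, 516 and 498 CPM in mexAM and 0.438, 0.647 and 0.581 CPM in BMDM, 1169-fold higher (95% interval 399.9 to 5673), although its close paralogue Cyp4a12a makes the assignment uncertain. Sema3e, a guidance ligand, had 199, 412 and 280.4 CPM in mexAM and 0, 0.647 and 0.581 CPM in BMDM, 833-fold higher (95% interval 230.3 to 6883), and Fam89a had 94.8, 64.1 and 131 CPM in mexAM and 0, 0.647 and 0 CPM in BMDM, 553-fold higher (95% interval 98.8 to 21863). In the other direction, Zfp36l1, which destabilises messenger RNA, had 0, 0.493 and 0.391 CPM in mexAM and 793, 720.4 and 447 CPM in BMDM, 2101-fold lower (95% interval 581 to 17356), and Igfbp4, which binds insulin-like growth factors, had 0, 0 and 0.782 CPM in mexAM and 754, 674 and 417 CPM in BMDM, 1979.8-fold lower (95% interval 548 to 16355). In none of these 6 genes did the cultures overlap.

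The spread between mice differed by gene and culture. The edgeR common biological coefficient of variation was 0.241 in mexAM and 0.173 in BMDM. Among genes with a mean of at least 100 CPM, the median SD over the mean was 0.154 in mexAM (1659 genes) and 0.126 in BMDM (1604 genes). In mexAM, the most uneven were Egln3, Slc2a1 and Tpi1, highest in mouse 4, followed by Usf2, a transcription factor, with 585, 161 and 174 CPM. Gdf15, a stress-induced cytokine, had 2476, 1069 and 523 CPM in mexAM and 63.1, 51.8 and 105 CPM in BMDM (4.21 ± 0.61, edgeR adjusted p = 0.000115), with the order mouse 1, mouse 2 and mouse 4 from high to low in mexAM. Adcy3, an adenylyl cyclase, was highest in mexAM of mouse 2, with 44.5, 196 and 79.8 CPM. In BMDM all 8 of the most uneven genes, from Mmp12 and Cd36 to Anxa2 and Spp1, were highest in mouse 4. Without mexAM of mouse 1 the change of Gdf15 was 3.43. BMDM of mouse 4 was also the highest BMDM library in the summed levels of neutrophil, mast cell, dendritic cell and fibroblast markers, and their part in this spread was not tested.

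The other libraries show where the levels of both cultures lie, without a test. Hmgcs1 was lower in BALF than in mexAM, with 265, 301 and 324 CPM in BALF, 1678 and 1070.1 CPM in pool 1 and 1306 and 1266 CPM in pool 2 and 59.5, 73.5 and 58.4 CPM in PLF. Csn2 had 4.85, 2.24 and 0 CPM in BALF, 806 and 942 CPM in pool 1 and 42.0 and 32.3 CPM in pool 2 and 1.31, 0 and 0 CPM in PLF, so its level in pool 2 was below that in pool 1. Cish had 3.47, 11.2 and 7.11 CPM in BALF and 54.2 and 131 CPM in pool 1 and 31.9 and 82.4 CPM in pool 2. Cxcr2, at 159 to 389 CPM in mexAM, had 6.24, 11.2 and 13.3 CPM in BALF and 113 and 118 CPM in pool 1 and 145 and 259 CPM in pool 2. For Itgax the order was different, with 573, 534 and 522 CPM in BALF, well above every cultured library, and 44.5 and 62.4 CPM in pool 1 and 104 and 40.2 CPM in pool 2. Hmox1, not called between mexAM and BMDM, had 12254, 12845 and 7354 CPM in BALF. H2-Aa had 174, 182 and 200 CPM in BALF, between the mexAM and the BMDM value of each mouse. Apoe had 45.1, 60.6 and 66.7 CPM in BALF, 15.5 and 10.5 CPM in pool 1 and 29.3 and 12.4 CPM in pool 2 and 4854, 7172 and 4853 CPM in PLF, and the peritoneal factor gene Gata6, with 45.1, 56.4 and 50.2 CPM in PLF, had 0 counts in both cultures.

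**Figure D5:**
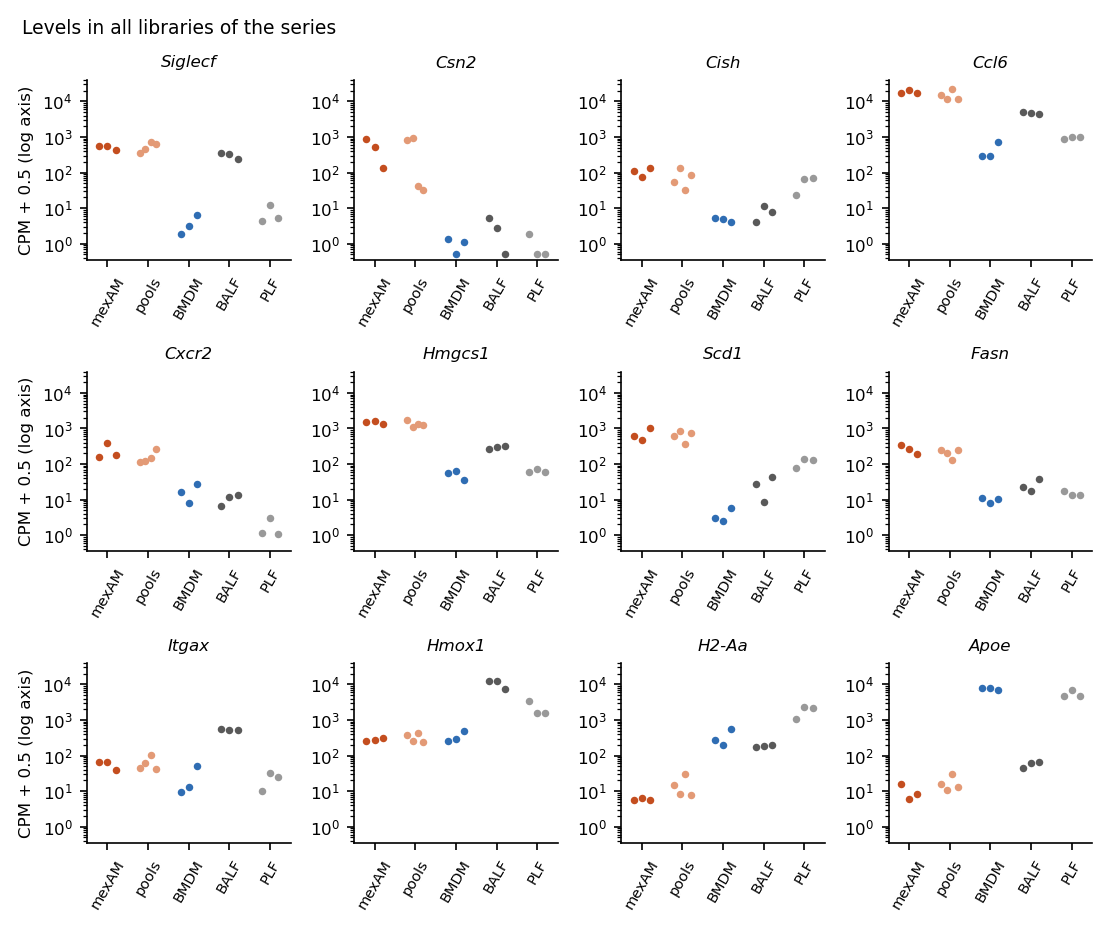
Levels of 12 genes in all 16 libraries, as CPM plus 0.5 on a log axis, 1 dot per library, with mexAM and the pool cultures first, then BMDM, BALF and PLF. Siglecf and Ccl6 are high in mexAM, the pools and BALF, Hmgcs1, Fasn, Cish and Csn2 are higher in mexAM and the pools than in BALF, and Itgax and Hmox1 are highest in BALF.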

How the data were processed

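Raw read counts per gene, with no normalization, were deposited by the authors for each library. Per the labels' protocols, 150 ng of RNA per library went through QuantSeq 3' FWD with a UMI module, 15 PCR cycles and 65 bp single reads. The genome build was GRCm38, per the submitters' processing notes. For the aligner, the counter, any use of the UMIs and the strand setting, the entry is the same: not given in the sources used here. Overlapping genes are therefore uncertain.

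Lines that name no gene (5 per file) were left out of totals and tests; besides the reads outside genes given in the report, ambiguous reads made up 0.4836% to 0.625% in mexAM and 0.4505% to 0.5472% in BMDM. GENCODE M21 named 47224 of 47643 identifiers, and the 419 unnamed ones held 0.0338% of counts. Genes passing edgeR's filterByExpr (10011) were scaled by TMM and fitted with a robust quasi-likelihood model of 12 libraries in 4 groups (mexAM, BMDM, BALF, PLF; 8 residual degrees of freedom), with Benjamini-Hochberg adjusted p over all genes (R 4.3.3, edgeR 4.0.16, limma 3.58.1, DESeq2 1.42.0, Python 3.11.15, numpy 2.4.6, pandas 2.3.3, scipy 1.17.1, matplotlib 3.10.9). SE is the size of the log2 change over the square root of F. In data simulated for mexAM against BMDM (9553 genes), true log2 changes of 1, 2 and 4 were given to 66, 65 and 65 genes. They were called in 53%, 95.4% and 100% of these genes, and 4 unchanged genes were called. The simulation changed far fewer genes than were called in the data and none of the lowest level, so these shares need not hold for the data.

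A gene at 0 counts in a culture is given as a bound against 3 counts over the group, and one with 1 to 3 counts as a ratio with an exact 95% (Clopper-Pearson) interval. Both cover counting error only. The members and the 59 gene lists were chosen with earlier results of these data known. The genes named are a selection from those covered by a rule, which are the largest called changes, the largest called members of each list, the smallest lists in full, the most counted and the most uneven genes; Gngt2, Isg15 and Ifit1 were named after their values were seen. The labels give mexAM and BMDM of 1 mouse the same number, which pairs them, and their deviations from the group means correlated at -0.0871, -0.0116 and 0.0219 in mice 1, 2 and 4. No library was a copy of another. Promoters are from RefSeq (GRCm38.p6).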

Additional observations from a re-analysis of the deposited data

How the results depend on the processing

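The number of genes called between mexAM and BMDM, 4462, was 3751 to 4417 with 1 of the 6 libraries left out, 4434 with DESeq2, 4441 with DESeq2's size factors, 4423 with library totals alone, 5179 with no filter on low counts, 4099 with a filter at 10 CPM, 4404 without mitochondrial genes and ribosomal RNA loci, and 4475 without robust estimation. Of the 4462 genes themselves, 3584 to 4074 were called in the same direction with 1 library left out, 4016 with DESeq2 and 4164 with no filter. A replicate block on mouse gave 4338 calls in 12 libraries and 4089 in the 6 libraries alone, where the fit without it gave 4263; apart from genes named in the report beside their values, it changed the calls of Malat1, Il3ra, Ighd, Ndrg1 and Clec4n among the genes covered by the naming rule. Library totals alone moved the median log2 change to -0.08 and the share of calls that were higher to 43.9%, against 48.3%. Calls of at least 8-fold numbered 1669 with no filter, against 1041. Allowing 1 count in place of 0 over the 3 libraries, the genes at 10 CPM or more in mexAM and near absent from BMDM numbered 40, against 18, and those at 10 CPM or more in BMDM and near absent from mexAM numbered 114, against 61. The share of the 10 most counted genes was -3.05 percentage points different, mexAM minus BMDM (exact p = 0.3), and 1.42 without Gm42418 (exact p = 0.2); its BMDM values carry more of that locus. No called gene among those named changed direction under any of 16 alternatives, 290 of 323 kept the call under every one that tested them, and 16 of 92 not called gained one. Of 68 list counts of 5 or more, 17 moved by over 1.5 times under at least 1 alternative; those not given in the report are TGF-β lower (14 with no filter), oxidative stress lower (8 with no filter), B cell lower (1 of 2 tested in a fit of the 6 libraries), and fibroblast lower (8 with no filter). With 3 libraries a culture of 1458341 to 2427996 counts each, a change of 2-fold that was not called may have been missed. The simulation called 53% of such changes, but it changed few genes and none of the lowest level, so that share need not hold here.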
